A study of Mus musculus with 10 samples.

Results

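Oxidative phosphorylation is the process by which mitochondria make ATP, and the nuclear genes for its protein subunits are described here in mouse endothelial cells with and without added Gata4. Members were all array features whose gene symbol starts with Nduf followed by a, b, c, s or v, with Uqcr, with Cox and a digit from 4 to 8, or with Atp5. The pattern found 82 of the 23111 named features, which were 44 genes of complex I, 7 of complex III, 17 of complex IV and 14 of complex V. By known role they comprised 63 subunits, 8 tissue isoforms of subunits, 8 assembly factors of complex I (Ndufaf1 to Ndufaf8), 2 pseudogenes and 1 supercomplex factor. The choice used symbols and not expression values.

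In the inner mitochondrial membrane, complexes I, III and IV pass electrons from NADH to oxygen through ubiquinone and cytochrome c and pump protons outward, and complex V (ATP synthase) uses the returning protons to make ATP. Complex I is NADH dehydrogenase, complex III is the ubiquinol to cytochrome c reductase, and complex IV is cytochrome c oxidase. Each complex has a catalytic core and a shell of accessory subunits, and several complex IV subunits have an isoform gene that is used mainly in heart and skeletal muscle, lung or testis. Endothelial cells draw much of their ATP from glycolysis and also respire.

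Gene expression had been read with Affymetrix microarrays in total RNA of bEnd3, a mouse brain endothelial line immortalised with polyoma middle T antigen. In 5 samples, called Gata4 samples here, a lentivirus with the EF1α promoter had delivered a codon-optimised cDNA for mouse GATA4 followed by an IRES, mCherry, a self-cleaving viral peptide and a puromycin resistance gene. In the other 5, called EV samples, the empty vector carried the IRES, mCherry and the resistance gene without Gata4, and both groups had been selected with puromycin. The series title concerns the part that GATA4, a zinc finger transcription factor, plays in the identity of endothelial cells of different organs. Titles call the samples biological replicates without saying whether each had its own transduction, so the p-values cover the spread seen among these 10 samples.

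Levels are log2 values from RMA, which gives every array the same distribution of values, so each change is relative to the other genes of the array. A level also depends on how well a feature's probes bind, so changes were taken between samples of the same gene. Where levels of different genes are set side by side or against the array median, they describe features and not transcript amounts. A gene was called where its adjusted p in limma, a linear model with a shared estimate of spread, was under 0.05 after Benjamini-Hochberg adjustment over all 23111 named features. Changes are the Gata4 mean minus the EV mean on the log2 scale with the moderated standard error (SE). The arrays read bulk RNA, so a change in every cell and a change in the share of cells that express a gene cannot be told apart.

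All arrays of a group correlated with each other at 0.9964 to 0.9977, and arrays of different groups at 0.9841 to 0.9863. On the second principal component the EV samples 1 and 2 lay apart at -12.85 and -14.43, against 5.55 to 13.34 for EV samples 3 to 5. The feature for Gata4 read 4.75 ± 0.16 (SD, n = 5) in EV and 5.08 ± 0.17 in Gata4 samples, a change of 0.34 ± 0.09 (SE; limma adjusted p = 0.0171), and whether its probes bind the codon-optimised cDNA is not given in the sources used here. All 11 endothelial markers lay above the median level of the array, and their mean level was 10.84 to 11.06 in EV and 11.01 to 11.08 in Gata4 samples. Of these 11, 4 rose and 4 fell, with the largest rise in Vwf, von Willebrand factor (1.88 ± 0.12, SE; limma adjusted p = 1.4e-07), and the largest fall in Kdr, a VEGF receptor (-1.18 ± 0.05; limma adjusted p = 4.6e-09). Marker lists of 8 other cell types had mean levels of 3.33 to 4.28 in EV and 3.35 to 4.23 in Gata4 samples. Each of the 8 lists had 0 to 2 genes above the median level. EV means were 8.53 for Cd68, 7.12 for Acta2, 5.43 for Pdgfra, 5.49 for Krt8 and 5.48 for Tnnt2. Krt8 and Tnnt2 were named after their values were seen. Among those 8 lists, 4 genes rose (Tubb3, Dcn, Rgs5 and Adgre1) and 3 fell (Cd68, Pdgfra and Acta2), and their part in the results below was not tested. The call of Adgre1 was lost without any 1 of Gata4 samples 2 and 3 and EV samples 2 to 5 (limma adjusted p 0.0513 to 0.0782), and that of Acta2 without any 1 of Gata4 samples 3 and 5 and EV sample 1 (0.0537 to 0.0616). The change of Acta2 was -0.76 with all samples and -0.36 without EV samples 1 and 2.

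Of the 82 members, 14 rose and 4 fell with Gata4, and 64 were not called. The called share was 22.0%, where 25.6% of all named features were called. For rises the share was 17.1% against 12.4% over all features, and for falls 4.88% against 13.2%. The median change of the members was 0.04, beside -0.01 over all features. Called members changed by 1.11-fold to 1.52-fold, and 2 of the 82 were called with at least 1.5-fold, where 7.39% of all features were. In 18 members no Gata4 value lay within the EV range or the reverse, which was 22.0% against a background of 21.1%.

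Most members had levels above the median of the array, where calls were more frequent, so they were also set beside features of like level. A total of 69 members had a mean level above 4.13, the median of all named features. Among these 69, 26.1% were called, against 46.0% of the features above that median. Rises made up 20.3% of the 69, beside 21.7% of that background, and falls made up 5.8%, beside 24.3%. The median size of a change, whatever its sign, was 0.10 for these members and 0.19 for that background. The groups did not overlap in 26.1% of these 69 members and in 38.6% of that background. None of the other 13 members was called by limma, with 3 at an unadjusted p under 0.05, where 5.21% of the features at or below the median level were called.

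Of the 18 calls, 14 were rises, or 77.8%. When each array was centred instead on its cytosolic ribosomal protein features, which moved the median change of all features by 0.075, the members had 24 rises and 2 falls, and rises made up 92.3% of the calls. Over all named features rises made up 48.3% of the calls as deposited and 65.9% under this scaling, which moves every gene the same way. Its centre was the mean of 60 features, of which 40 lay above the median level of the array. As deposited, the median change of these 60 was 0.01, and their changes ran from -0.84 to 0.40. Without the EV samples 1 and 2 there were 8 rises and 1 fall. Under the alternative fits, scalings, filters and left-out samples run for single genes, 8 members were always called. They were Ndufa8, Ndufa4, Ndufb9, Uqcrh, Uqcrc1, Cox4i1 and Atp5d, which rose, and Uqcrq, which fell. Of these 8, Ndufb9, Uqcrc1, Cox4i1 and Atp5d changed by less than 1.2-fold.

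**Figure D1:**
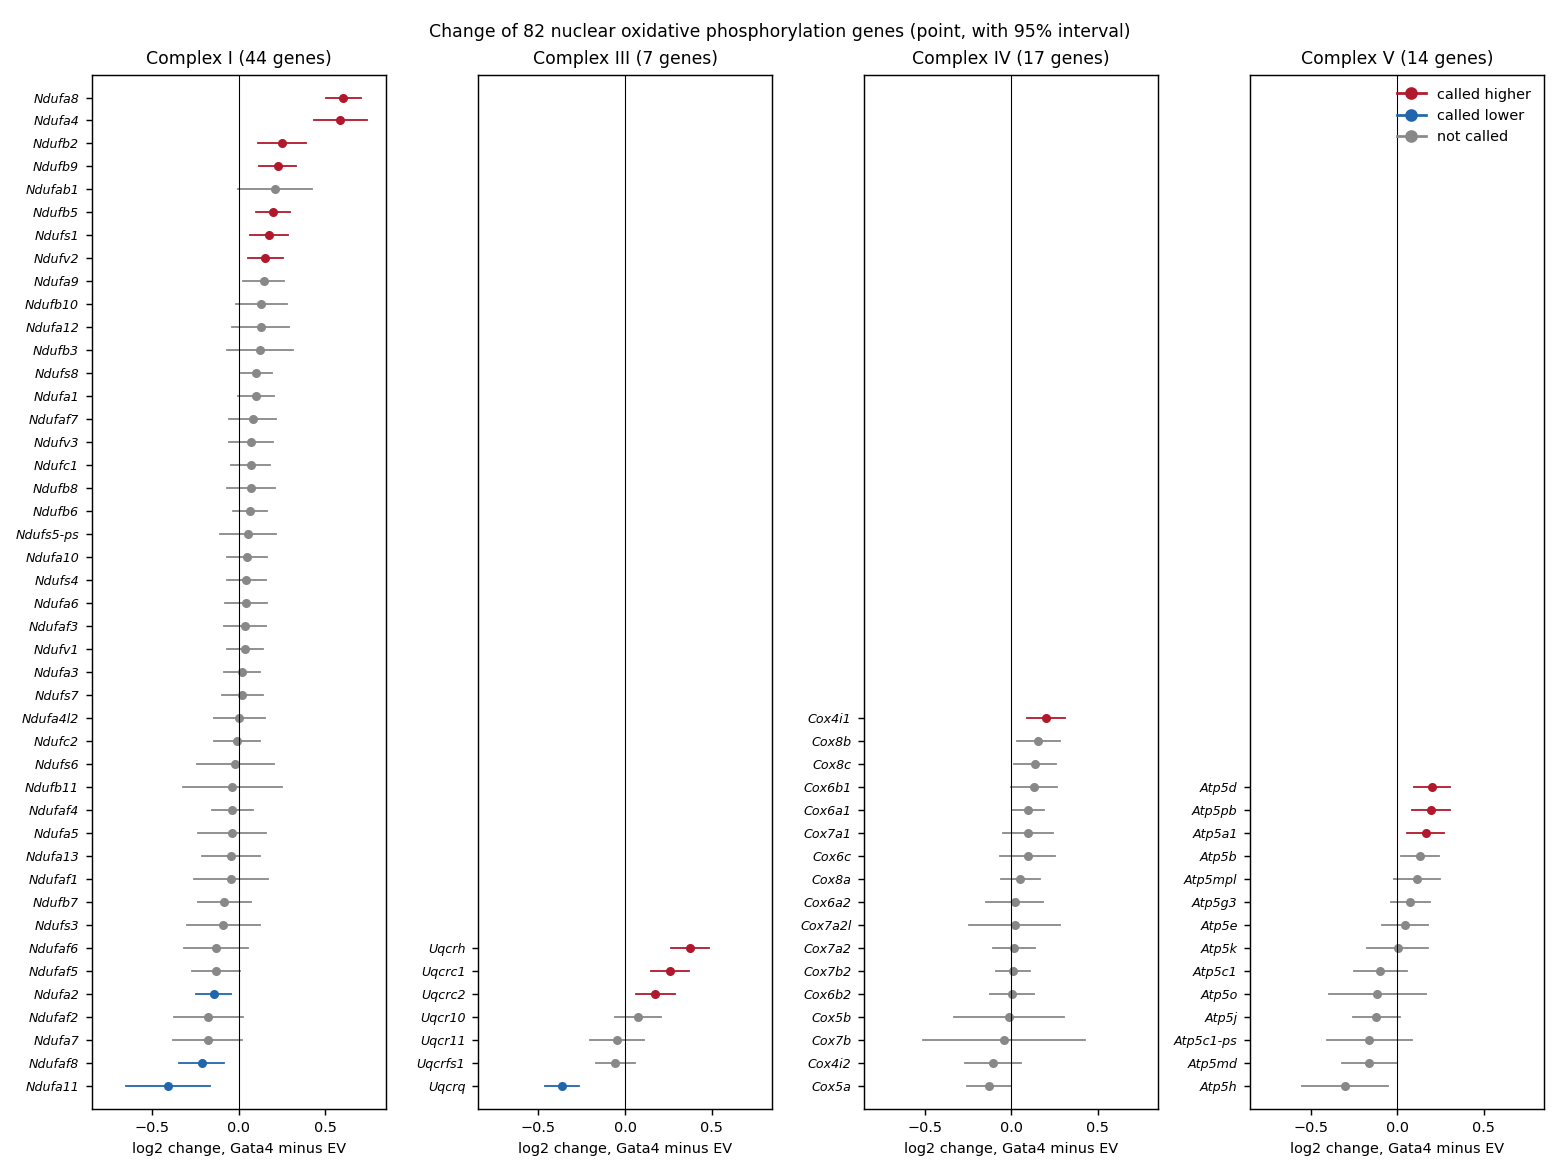
Log2 change (Gata4 minus EV) of the 82 members by complex, as points with 95% confidence intervals from limma (red, called higher; blue, called lower; grey, not called). Ndufa8 and Ndufa4 stand highest at 0.60 and 0.59, and Ndufa11 and Uqcrq lowest at -0.41 and -0.36.

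In complex I, 7 of the 44 members rose and 3 fell, and their median change was 0.04. These were 15.9% rises and 6.82% falls, beside 12.4% and 13.2% of all named features. Of the 44, 42 lay above the median level, where 21.7% of features rose and 24.3% fell. The rises were led by Ndufa8, an accessory subunit on the intermembrane space side of the membrane arm, and by Ndufa4. The Ndufa4 protein was long counted with complex I and is now counted as a subunit of complex IV. Falls were called for Ndufa11 and Ndufa2, both accessory subunits, and for the assembly factor Ndufaf8.

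Ndufa8 read 12.03, 11.92, 11.96, 12.04 and 12.03 in Gata4 samples 1 to 5 and 11.39, 11.40, 11.43, 11.31 and 11.43 in EV samples 1 to 5. Every Gata4 sample was above every EV sample, by far more than the spread inside either group. The mean was 11.99 ± 0.05 (SD, n = 5) in Gata4 and 11.39 ± 0.05 in EV samples. The change of 0.60 ± 0.05 (SE), or 1.52-fold, had a limma adjusted p of 5.7e-07, and the exact two-sided permutation p was 0.0079, the smallest that the 252 assignments of the samples can give.

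For Ndufa4 the values were 10.79, 10.80, 10.45, 10.77 and 10.78 in Gata4 and 10.11, 10.08, 10.20, 10.11 and 10.16 in EV samples. Again no values overlapped, although Gata4 sample 3 lay below the other Gata4 samples. Ndufa4 rose by 0.59 ± 0.07 (SE), or 1.5-fold (limma adjusted p = 3.3e-05). Its paralogue Ndufa4l2, a gene induced by low oxygen, had mean levels of 3.27 in both groups and a change of 0.00 ± 0.07 (SE; limma adjusted p = 0.984).

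Further rises in complex I were seen in accessory subunits of the membrane arm. Ndufb9 read 12.04, 12.02, 11.92, 11.89 and 11.96 in Gata4 and 11.77, 11.79, 11.74, 11.64 and 11.76 in EV samples, with no overlap, and rose by 0.22 ± 0.05 (SE; limma adjusted p = 0.00418). Ndufb2 read 9.39, 9.41, 9.21, 9.31 and 9.40 in Gata4 and 9.21, 9.02, 9.22, 8.97 and 9.06 in EV samples. Its lowest Gata4 value lay just inside the EV range, and its change was 0.25 ± 0.06 (SE; limma adjusted p = 0.0108). The call of Ndufb2 was lost in 1 of 21 alternative runs and kept whichever sample was left out. Ndufb5, named after its values were seen, rose by 0.20 ± 0.05 (SE; limma adjusted p = 0.00605) without overlap, a call lost without EV samples 1 and 2 (adjusted p = 0.0504).

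The core of complex I carries the flavin and the iron-sulfur clusters along which electrons travel to ubiquinone. Ndufs1, its largest iron-sulfur subunit, rose by 0.17 ± 0.05 (SE; limma adjusted p = 0.0234), from 9.06 to 9.27 in EV samples to 9.31 to 9.44 in Gata4 samples. Ndufv2, an iron-sulfur subunit beside the NADH site, rose by 0.15 ± 0.05 (SE; limma adjusted p = 0.0267), from 9.92 to 10.07 in EV samples to 10.12 to 10.19 in Gata4 samples. Both genes had no overlap between groups, and both calls were among the less stable ones. The call of Ndufs1 was lost without Gata4 sample 5 or EV sample 1 (limma adjusted p = 0.0615 and 0.0577), and that of Ndufv2 without any 1 of Gata4 samples 1, 4 and 5 and EV samples 1 and 2 (adjusted p 0.0505 to 0.0681). Without EV samples 1 and 2 together, both calls were lost.

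Of the other core genes of complex I analysed, none was called. Ndufs8, which holds iron-sulfur clusters near the ubiquinone site, had no overlap between groups, at 10.61 to 10.68 in Gata4 and 10.49 to 10.57 in EV samples. Its change of 0.10 ± 0.04 (SE) did not pass the test (limma adjusted p = 0.103). Changes were 0.04 ± 0.05 (SE) for Ndufv1, which binds NADH and the flavin, 0.02 ± 0.05 for Ndufs7, and -0.09 ± 0.10 for Ndufs3, with 95% intervals of -0.07 to 0.14, -0.10 to 0.14 and -0.30 to 0.12. The other uncalled subunits of complex I were accessory ones, and over all 25 uncalled subunits changes ran from -0.18 for Ndufa7 to 0.21 for Ndufab1, the acyl carrier protein of mitochondria. The lowest adjusted p among them was 0.0721, for the accessory subunit Ndufa9 (limma). Ndufa7, Ndufab1 and Ndufa9 were named after their values were seen.

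Ndufa11, an accessory subunit embedded in the membrane arm, was a fall measured near the lower end of the scale. It read 4.63, 4.18, 4.48, 4.42 and 4.23 in Gata4 and 5.03, 4.78, 4.60, 5.02 and 4.56 in EV samples. Gata4 sample 1 lay above EV samples 3 and 5, so the groups overlapped. The change was -0.41 ± 0.11 (SE; limma adjusted p = 0.0161; exact two-sided permutation p = 0.0238). The call of Ndufa11 was lost in 2 of 21 alternative runs and kept whichever sample was left out.

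Ndufaf8, which acts in complex I assembly together with Ndufaf5, read 7.34, 7.49, 7.16, 7.26 and 7.32 in Gata4 and 7.53, 7.54, 7.56, 7.51 and 7.49 in EV samples. The EV values were tightly grouped. The highest Gata4 and the lowest EV value both rounded to 7.49, and unrounded the groups did not overlap. The change was -0.21 ± 0.06 (SE; limma adjusted p = 0.0176). Ndufaf5 itself was not called, at -0.13 ± 0.06 (SE; limma adjusted p = 0.174). Over all 8 assembly factor members the median change was -0.09, with 6 negative and 2 positive changes and 12.5% called. All 8 lay above the median level, where 6229 features had negative and 5326 positive changes and 46.0% were called. Under ribosomal protein scaling the median change of the 8 was -0.01 with 0 called by limma.

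Ndufa2, an accessory subunit of the arm that holds the NADH site, read 8.40 to 8.47 in Gata4 and 8.49 to 8.67 in EV samples. It fell by 0.15 on the log2 scale, with an SE of 0.05 (limma adjusted p = 0.0374), and the groups did not overlap. This call was lost without any 1 of 9 of the 10 samples, the exception being EV sample 4 (adjusted p 0.0524 to 0.0933). Without EV samples 1 and 2 together, the calls of Ndufa2, Ndufaf8 and Ndufa11 were all lost, and complex I had 4 rises and 0 falls.

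In complex III, 3 of 7 genes rose and 1 fell, and the median change was 0.08. The called share of 57.1% rests on 7 genes, and 25.6% of all named features were called. All 7 lay above the median level, where 46.0% of features were called. Uqcrh, the acidic hinge protein at which cytochrome c docks, read 11.19, 11.15, 11.01, 11.06 and 11.12 in Gata4 and 10.80, 10.70, 10.69, 10.67 and 10.80 in EV samples. Every Gata4 sample was higher, and the change was 0.38 ± 0.05 (SE), or 1.30-fold (limma adjusted p = 1.1e-04). Uqcrc1, a large core protein on the matrix side, read 11.10, 11.02, 11.12, 11.19 and 11.19 in Gata4 and 10.83, 10.85, 10.95, 10.87 and 10.82 in EV samples. Its groups did not overlap either, and it rose by 0.26 ± 0.05 (SE; limma adjusted p = 0.00152). Uqcrc2, the partner of Uqcrc1, rose by 0.17 ± 0.05 (SE; limma adjusted p = 0.0249), a call lost without any 1 of Gata4 samples 1, 4 and 5 and EV samples 1 and 4 (adjusted p 0.0513 to 0.0636), and lost without EV samples 1 and 2 together.

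Uqcrq, a small subunit that lies next to cytochrome b, went the other way. It read 9.70, 9.71, 9.67, 9.67 and 9.60 in Gata4 and 10.01, 10.12, 10.03, 9.98 and 10.04 in EV samples. Every Gata4 sample was below every EV sample, the reverse of Uqcrh in the same arrays. Uqcrq fell by 0.36 on the log2 scale, with an SE of 0.05, which is 1.29-fold (limma adjusted p = 5.5e-05; exact two-sided permutation p = 0.0079). The Rieske iron-sulfur protein Uqcrfs1, the catalytic member of the list, was not called (-0.06 ± 0.05, SE; 95% interval -0.17 to 0.06). The small subunits Uqcr10 and Uqcr11, named after their values were seen, had changes of 0.08 ± 0.06 and -0.05 ± 0.07 (SE) and were not called.

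**Figure D2:**
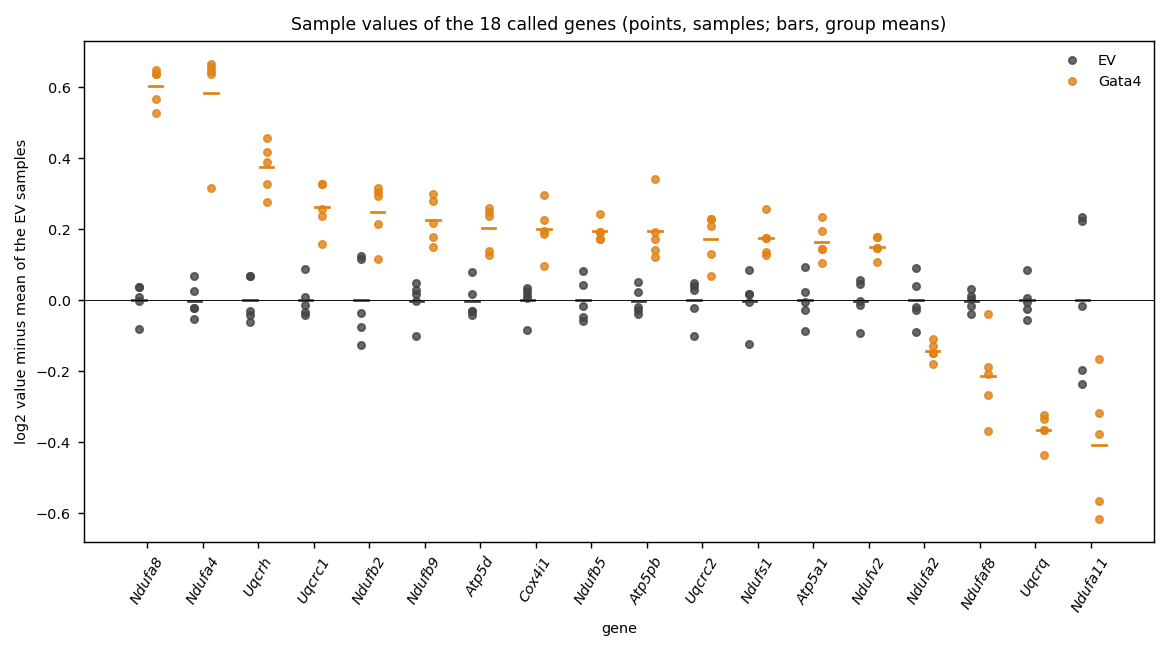
Level in each of the 10 samples, as log2 difference from the gene's EV mean, for the 18 called members, with Gata4 samples in orange, EV samples in grey and bars at the group means. Gata4 and EV points separate in 16 genes and overlap in Ndufb2 and Ndufa11.

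The promoters of 5 called members, 3 that rose and 2 that fell, are shown so that the letters before the start of rising and falling genes can be read side by side. None is shown for Uqcrq. Each sequence is the 250 bases before the RefSeq transcription start in mouse GRCm38.p6, read 5′ to 3′ on the gene's strand, for Ndufa8 (chr2:36049339-36049588, minus), Ndufa4 (chr6:11907451-11907700, minus), Uqcrh (chr4:116075071-116075320, minus), Ndufa11 (chr17:56717512-56717761, plus) and Ndufaf8 (chr11:120098684-120098933, plus). Capitals mark matches to any of 5 motifs, searched on either strand. The motif of the factor NRF1 was searched with the letters GCGCANGCG. The motif of ETS factors was searched as CCGGAAG. For the factor YY1 the letters were AANATGGCG. Estrogen-related receptors (ERR) were represented by the letters AAGGTCA. The motif of GATA factors was searched as AGATAA.
Ndufa8: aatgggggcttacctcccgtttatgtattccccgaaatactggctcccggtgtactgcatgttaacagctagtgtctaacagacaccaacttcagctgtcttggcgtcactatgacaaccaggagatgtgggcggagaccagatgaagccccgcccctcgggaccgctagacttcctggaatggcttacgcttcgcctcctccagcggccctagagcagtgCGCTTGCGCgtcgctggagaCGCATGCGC
Ndufa4: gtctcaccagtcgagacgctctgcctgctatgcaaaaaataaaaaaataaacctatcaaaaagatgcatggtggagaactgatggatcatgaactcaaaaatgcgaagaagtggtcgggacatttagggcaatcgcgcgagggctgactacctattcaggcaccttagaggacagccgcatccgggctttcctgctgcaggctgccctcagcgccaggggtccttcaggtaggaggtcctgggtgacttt
Uqcrh: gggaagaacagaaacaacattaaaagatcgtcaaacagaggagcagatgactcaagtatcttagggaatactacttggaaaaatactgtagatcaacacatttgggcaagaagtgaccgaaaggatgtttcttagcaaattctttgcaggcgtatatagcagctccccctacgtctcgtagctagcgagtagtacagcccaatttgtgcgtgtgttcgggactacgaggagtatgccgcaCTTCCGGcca
Ndufa11: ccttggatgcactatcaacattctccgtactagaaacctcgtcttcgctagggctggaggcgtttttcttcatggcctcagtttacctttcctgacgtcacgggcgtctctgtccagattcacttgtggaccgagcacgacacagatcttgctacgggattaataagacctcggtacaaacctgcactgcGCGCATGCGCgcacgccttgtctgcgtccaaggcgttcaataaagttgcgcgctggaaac
Ndufaf8: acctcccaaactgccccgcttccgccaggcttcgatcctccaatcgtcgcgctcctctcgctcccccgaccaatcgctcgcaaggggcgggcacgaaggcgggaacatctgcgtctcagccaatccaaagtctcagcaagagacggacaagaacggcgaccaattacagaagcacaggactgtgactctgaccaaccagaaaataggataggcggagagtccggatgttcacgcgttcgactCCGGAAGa
Ndufa8, which rose, held 2 NRF1 matches, which start 29 and 9 bases before the transcription start. Ndufa11, which fell, held 2 overlapping NRF1 matches that start 60 and 59 bases before it. Uqcrh, which rose, held an ETS match 10 bases before the start, and Ndufaf8, which fell, held one 8 bases before it. The window of Ndufa4 held none of the 5 motifs.

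NRF1 and the ETS factor GABP are known regulators of respiratory genes, YY1 and ERR proteins act at many of them, and the last of these motifs is a form of the site that GATA factors bind. A window was at hand for 66 of the 82 members. The NRF1 motif was in 9 of these 66 (13.6%), against 8.09% of the 17491 array genes with a window, and the ETS motif in 12 (18.2%), against 10.1%. YY1 letters were in 3 members (4.55%; 1.6% of all), ERR letters in 2 (3.03%; 4.23% of all) and GATA letters in 4 (6.06%; 10.1% of all). Of 9 rising members with a window, 1 held NRF1, 1 ETS, 1 ERR and 0 GATA letters. The 4 members with GATA letters were all uncalled, where 55 of the 66 members with a window were uncalled. A match describes letters and does not show binding, and a window without a match says nothing about a factor.

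In complex IV, 1 of 17 members rose and limma called 0 falls (0 at an unadjusted p under 0.05 and 0 by the exact rank-sum test), and the median change was 0.02. Over all named features 12.4% rose and 13.2% fell, and 8 of the 17 lay above the median level. The rise was in Cox4i1, the widely used isoform of a subunit that regulates the oxidase through ATP binding. Cox4i1 read 10.44, 10.51, 10.31, 10.41 and 10.40 in Gata4 and 10.23, 10.25, 10.24, 10.13 and 10.22 in EV samples. The groups did not overlap, and EV sample 4 lay below the other EV samples. The change was 0.20 ± 0.05 (SE), or 1.15-fold (limma adjusted p = 0.00825). Its partner Cox4i2, the lung isoform, read 4.18 ± 0.10 (SD, n = 5) in Gata4 and 4.29 ± 0.14 in EV samples and was not called.

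The other widely expressed isoforms of complex IV were not called. Cox6a1 read near the upper end of the scale, and all 5 Gata4 samples read 13.19 with an SD of 0.0005, while EV samples read 13.14, 13.11, 13.07, 13.07 and 13.03. The groups did not overlap, and the change of 0.10 ± 0.04 (SE) did not pass the test (limma adjusted p = 0.105). Changes were 0.13 ± 0.06 (SE) for Cox6b1, 0.05 ± 0.05 for Cox8a, 0.02 ± 0.06 for Cox7a2 and -0.04 ± 0.21 for Cox7b. Among the remaining subunits, Cox5a had the lowest change, -0.13 ± 0.06 (SE; limma adjusted p = 0.151), and Cox6c one of 0.09 ± 0.07, both named after their values were seen. The interval of Cox7b, -0.51 to 0.43, was the widest of the 82 members, against a median of 0.13 on either side of the estimate for all members.

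The 8 tissue isoforms were near the lower end of the scale, with mean levels of 2.77 to 4.24, and limma called none (2 at an unadjusted p under 0.05). These were the muscle forms Cox6a2, Cox7a1 and Cox8b, the testis forms Cox6b2, Cox7b2 and Cox8c, Cox4i2 and Ndufa4l2. Their changes ran from -0.10 to 0.16, the latter for Cox8b (limma adjusted p = 0.0593), which read 3.10 to 3.19 in Gata4 and 2.85 to 3.13 in EV samples. Defining markers of cardiac and skeletal muscle had mean levels of 3.71 to 3.80 in Gata4 and 3.67 to 3.86 in EV samples, and limma called none of those 8 genes (1 at an unadjusted p under 0.05). Of those 8 markers, 2 lay above the median level of the array. Cox7a2l, which links complexes III and IV, read 3.75 ± 0.20 (SD, n = 5) in Gata4 and 3.73 ± 0.25 in EV samples.

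Low values were also seen for 4 subunits that have no place in a tissue isoform class. Ndufb3 read 3.46, Cox5b 3.99, Cox7b 3.90 and Atp5h, the stalk subunit d of ATP synthase, 3.04 as a mean over all samples, all below the array median of 4.13. These genes encode general parts of their complexes, so a low reading of a feature does not show that its transcript was absent. Atp5h had the largest uncalled change, at -0.30 ± 0.11 (SE; limma adjusted p = 0.0729), from 3.20 ± 0.24 (SD, n = 5) in EV to 2.89 ± 0.16 in Gata4 samples. Ndufb3, Cox5b and Atp5h were named after their values were seen.

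In complex V, 3 of 14 members rose and limma called 0 falls (2 at an unadjusted p under 0.05 and 0 by the exact rank-sum test), and the median change was 0.02. Rises made up 21.4%, beside 12.4% of all named features, where 13.2% fell. Of the 14, 12 lay above the median level, where 21.7% of features rose and 24.3% fell. Atp5d, the delta subunit of the central stalk, read 11.95, 11.94, 12.06, 12.07 and 12.05 in Gata4 and 11.78, 11.83, 11.89, 11.78 and 11.77 in EV samples. The groups did not overlap, and the change was 0.20 ± 0.05 (SE), or 1.15-fold (limma adjusted p = 0.0072). Atp5pb, subunit b of the peripheral stalk, rose by 0.19 ± 0.05 (SE; limma adjusted p = 0.013), from 10.65 to 10.74 in EV samples to 10.81 to 11.03 in Gata4 samples. Without EV samples 1 and 2 together its call was lost.

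The catalytic head of ATP synthase is built of alternating alpha and beta subunits around the gamma shaft. Atp5a1, the alpha subunit, rose by 0.16 ± 0.05 (SE; limma adjusted p = 0.0261), with 11.63 to 11.76 in Gata4 and 11.44 to 11.62 in EV samples. Its call was lost without any 1 of Gata4 samples 4 and 5 and EV samples 1, 2 and 4 (adjusted p 0.0521 to 0.067), and without EV samples 1 and 2 together. Atp5b, the beta subunit, read 12.90, 12.78, 12.90, 12.93 and 12.93 in Gata4 and 12.71, 12.68, 12.82, 12.79 and 12.78 in EV samples. Gata4 sample 2 lay within the EV range, and the change of 0.13 ± 0.05 (SE) was not called (limma adjusted p = 0.073). Atp5c1, the gamma subunit, was not called either, at -0.10 ± 0.07 (SE; 95% interval -0.25 to 0.05). Atp5g3, the member among the genes of the rotating c ring, had a change of 0.07 ± 0.05 (SE; limma adjusted p = 0.377). Over all 10 uncalled subunits of complex V the changes ran from -0.30 to 0.13. The pseudogenes Atp5c1-ps and Ndufs5-ps, whose features may also bind transcripts of the parent genes, had changes of -0.16 ± 0.11 and 0.05 ± 0.07 (SE) and were not called.

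Of the 10 core members of complexes I, III and V as 1 group, 3 rose and limma called 0 falls (0 at an unadjusted p under 0.05), with a median change of 0.07. All 10 lay above the median level, where 21.7% of features rose and 24.3% fell. The mean level over the subunits of a complex was also taken in each sample. For complex III it was 9.67 to 9.80 in Gata4 and 9.66 to 9.71 in EV samples, and for complex V 9.33 to 9.40 and 9.32 to 9.39. For complex I it was 9.09 to 9.19 and 9.04 to 9.09, and for complex IV 8.60 to 8.92 and 8.69 to 8.80. The groups overlapped in complexes III, IV and V and met at 9.09 in complex I, and complex IV had its lowest and its highest value among the Gata4 samples. Gata4 sample 3 was the lowest Gata4 sample in each of the 4 complexes. The complex IV mean includes the low features Cox7b and Cox5b, which read 3.01 and 3.55 in that sample. In the other Gata4 samples they read 3.91 to 4.49 and 3.90 to 4.51, and their part in the spread of complex IV was not tested.

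**Figure D3:**
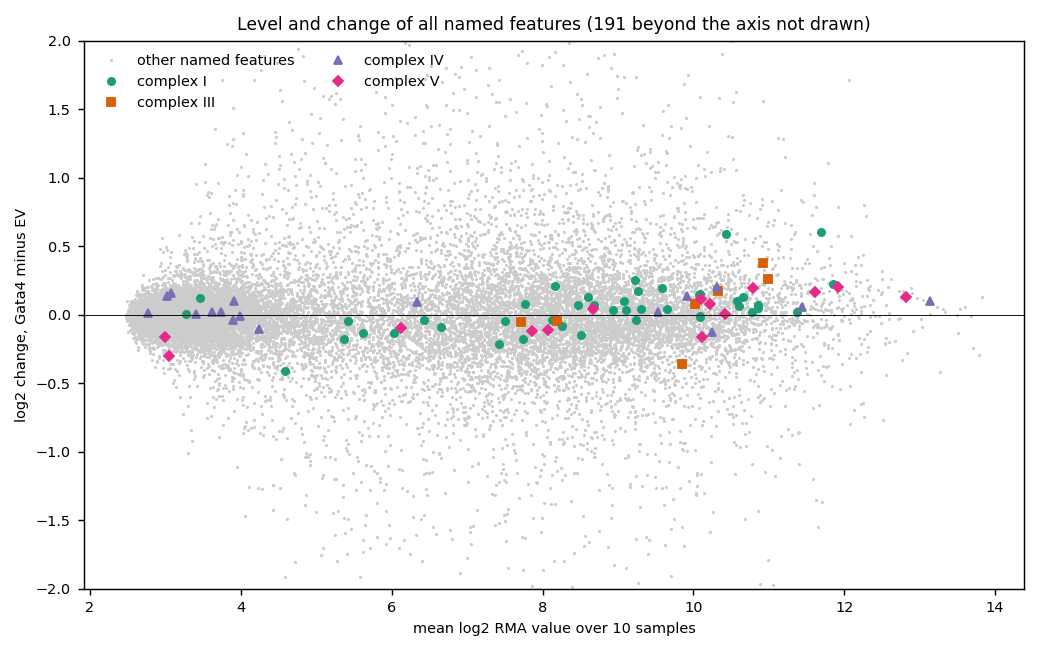
Log2 change (Gata4 minus EV) against mean log2 level over 10 samples for the named features (grey) and the 82 members (symbols by complex), where 191 features beyond the vertical axis are not drawn. The members spread from -0.41 to 0.60, inside the range of other features of like level.

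Genes that work beside the members were taken from lists of known function, and the counts of calls are given against the same background of 12.4% rises and 13.2% falls. Most genes of each list lay above the median level of the array, where 21.7% of features rose and 24.3% fell. In complex II, succinate dehydrogenase, 1 of 4 genes rose and 1 fell. Sdha, its flavoprotein, rose by 0.19 ± 0.05 (SE; limma adjusted p = 0.00894), and Sdhd, a membrane anchor, fell by 0.20 on the log2 scale, with an SE of 0.05 (limma adjusted p = 0.0140). Both calls were lost without EV samples 1 and 2. Among 8 genes of cytochrome c and other electron carriers, 2 rose and 1 fell. These included Etfb, a subunit of the electron transfer flavoprotein, with a rise of 0.24 ± 0.05 (SE), and Coq10b, a ubiquinone-binding protein, with a change of -0.29 ± 0.07.

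Assembly factors outside the symbol pattern were split, with 7 of 37 rising and 5 falling and a median change of 0.04. Nubpl, which delivers iron-sulfur clusters to complex I, rose by 0.42 ± 0.09 (SE; limma adjusted p = 0.00325). Atpaf2, a chaperone of the alpha subunit of ATP synthase, fell by 0.55 on the log2 scale, with an SE of 0.09 (limma adjusted p = 4.0e-04), while Atp5a1 itself rose. In ubiquinone synthesis 1 of 10 genes rose, the monooxygenase Coq6 (0.29 ± 0.08, SE), and 3 fell, led by the methyltransferase Coq3 (-0.42 ± 0.07). The call of Coq6 was lost without EV samples 1 and 2 (limma adjusted p = 0.0801).

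Among 19 regulators of mitochondrial biogenesis, 1 rose and 4 fell, and the median change was -0.07. Nrf1, the transcription factor whose motif was searched above, read 6.99, 6.79, 6.95, 6.96 and 6.97 in Gata4 and 7.26, 7.16, 7.31, 7.23 and 7.26 in EV samples. All Gata4 values were lower, and Nrf1 fell by 0.31 on the log2 scale, with an SE of 0.05 (limma adjusted p = 6.3e-04). The other falls, named after their values were seen, were Gabpb1, a subunit of GABP (-0.23), the coactivator Pprc1 (-0.27), and Polg2, the accessory subunit of the mitochondrial DNA polymerase (-0.29). The coactivator Ppargc1b read 4.64, 4.61, 4.68, 4.66 and 4.64 in Gata4 and 4.49, 4.15, 4.27, 4.12 and 4.17 in EV samples, with no overlap. It rose by 0.41 ± 0.07 (SE; limma adjusted p = 5.1e-04). The mean levels of Ppargc1b and Polg2, 4.44 and 4.27, were near the lower end of the scale. Under ribosomal protein scaling 2 of the 19 fell in place of 4, and the median change was 0.01.

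Other large protein assemblies are given for comparison. In the mitochondrial ribosome 4 of 76 genes rose and 18 fell, with a median change of -0.10. Of these 76, 74 lay above the median level, and falls made up 23.7%, beside 24.3% of all features above it. The extremes were Mrpl16, at 0.44 ± 0.07 (SE), and Mrps27, at -0.57 ± 0.08. The number of falls depended on the setting, with 7 under ribosomal protein scaling and 10 without EV samples 1 and 2, and the median stayed negative in both, at -0.02 and -0.06. Import translocases had 1 rise (Timm17b, 0.25 ± 0.08, SE) and 5 falls (led by Tomm5, -0.54 ± 0.16) among 24 genes. The calls of Timm17b and Tomm5 were lost without EV samples 1 and 2 (limma adjusted p = 0.22 and 0.0658). Each was also lost in at least 1 run that left out a single sample (highest limma adjusted p 0.0911 and 0.0504). Proteasome subunits had 1 rise (Psmd8, 0.24 ± 0.06, SE) and 8 falls (led by Psmb8, -0.35 ± 0.08) among 37. Falls made up 20.8% and 21.6% of these 2 lists, in which 21 and 34 genes lay above the median level. The medians of these 2 lists, -0.07 and -0.04, became 0.01 and 0.04 under ribosomal protein scaling. Cytosolic ribosomal proteins had 3 rises, led by Rpl27a (0.40 ± 0.09, SE), and 5 falls, led by Rps14 (-0.84 ± 0.24), among 60 genes, with a median of 0.01. No difference between these lists and the 82 members was tested.

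**Figure D4:**
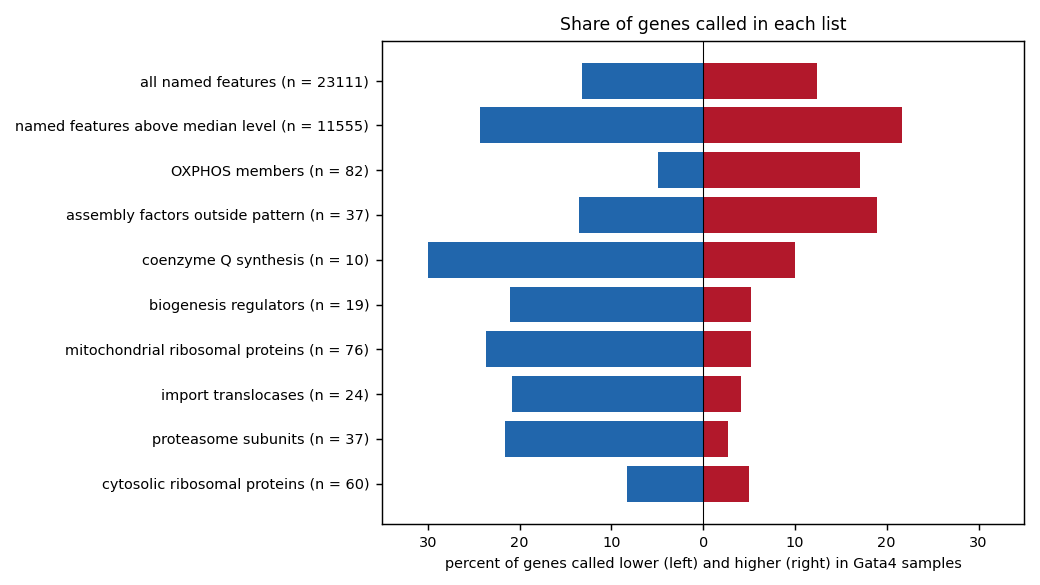
Percent of genes called lower (blue, to the left) and higher (red, to the right) for all named features, for those above the median level, for the 82 members and for 7 other lists. The 82 members show 17.1% rises and 4.88% falls, and the mitochondrial ribosomal proteins 5.26% and 23.7%. Features above the median level show 21.7% and 24.3%.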

How the data were processed

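The authors deposited 1 table of log2 values that, per the submitters' processing notes, came from RMA. The sources used here name neither its version nor a genome build. The table holds 23748 features in 10 samples, and values run from 2.37 to 13.93 with array medians of 4.16. The platform annotation gave 23111 features a symbol of their own, and the 637 unnamed features were left out of the fit. For arrays, the number of samples limits the precision.

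Groups came from the sample labels. The values were compared as deposited with limma 3.58.1 (R 4.3.3; lmFit and eBayes without trend), two-sided, with Benjamini-Hochberg adjustment over the named features. Single genes were also given an exact permutation test. The fit was tested on simulated data. The members and lists were chosen with earlier results of these data known, so no p was computed over a list.

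Genes were named by this rule: in each complex the 4 called subunits with the largest rise and the 4 with the largest fall, all isoform pairs, called assembly factors, the catalytic core genes, and in every other list the called genes with the largest rise and fall. Samples with the same replicate number did not deviate together (correlations of -0.02, 0.04, 0.06, 0.03 and 0.09), so the numbers were not taken as pairs. Promoter windows came from RefSeq (GRCm38.p6), and motifs were searched as exact letters on both strands. Alternatives covered the limma settings, filters on low levels, array scaling, a rank test, a replicate block, left-out samples, stricter thresholds and the place of Ndufa4.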

Additional observations from a re-analysis of the deposited data

Results flagged for a closer look

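Single samples that lay far from the other 4 of their group, by Dixon's test, were found in 5 of 134 groups of values tested, where chance gives about 1 in 20. Ndufa4 read 10.45 in Gata4 sample 3, below the other Gata4 samples. Cox4i1 read 10.13 in EV sample 4, below the other EV samples. Cox6a1 read 13.19 in all Gata4 samples, and sample 1 stood apart from the other 4 only beyond the decimals shown (SD 0.0005). Atp5b read 12.78 in Gata4 sample 2, the lowest of its group. Nrf1 read 6.79 in Gata4 sample 2, below the other Gata4 samples.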

How the results depend on the processing

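The counts of members called higher and lower (14 and 4; complex I 7 and 3, III 3 and 1, IV 1 and 0, V 3 and 0) moved most with array scaling, the EV samples and the threshold. Ribosomal protein scaling gave 24 and 2 (complex I 11 and 1, 5 rises each in IV and V). Without EV samples 1 and 2 they were 8 and 1 (complex I 4 and 0, 1 rise in V). Of all named features, ribosomal protein scaling called 24.6% and the run without these EV samples 22.1%. A fold of at least 1.2 left 3 and 2 (complex I 2 and 1, 1 rise in III, 0 in IV and V). An adjusted p under 0.01 left 8 and 1 (complex I 4 and 0, 1 rise in V). These 2 thresholds left 19.1% and 18.4% of all named features called. Complex IV had 2 rises by limma-trend, by the exact rank-sum test and with Ndufa4 counted there, the last an alternative chosen after seeing the data. Complex V had 1 fall by limma-trend and with the replicate block. With the replicate block the members had 11 rises and 4 falls, where 24.4% of all named features were called. The calls of Ndufv2, Ndufa2, Uqcrc2 and Atp5a1 were lost in that run (limma adjusted p = 0.0759, 0.0782, 0.0677 and 0.051).

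Leaving out 1 sample at a time gave 10 to 15 rises and 3 to 5 falls among the members. These runs called 23.2% to 24.4% of all named features. Complex IV had 1 to 2 rises and complex V 0 to 1 falls. The second complex IV rise was Cox6b1 without Gata4 replicate 4 and Cox8b without EV replicate 1 (limma adjusted p = 0.0257 and 0.026). Of the 18 called members, 13 were called whichever sample was left out, and 8 in every alternative run for single genes (the stricter thresholds were run for counts). The causes of these shifts were not tested. The filter above the median level removed the 13 low members, which have no value there. RMA removes any shift shared by all genes, and low features may read background, so a change there can be understated.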
